A study of Mus musculus with 3 samples.

Results

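The 10 genes described here, Fos, Fosb, Jun, Junb, Jund, Egr1, Nr4a1, Ier2, Dusp1 and Zfp36, are immediate early genes. They were chosen by name, and each matched 1 of the 32285 gene rows of the matrices. Immediate early genes are transcribed within minutes of a stimulus, such as ligation of the B cell receptor, without new protein synthesis, and their RNAs are short-lived. Fos and Jun proteins pair to form the transcription factor AP-1, Egr1 and Nr4a1 are transcription factors induced by antigen receptor signalling, and Dusp1 and Zfp36 limit the response. The same genes are known to rise when tissue is dissociated, as do heat shock genes.

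The genes were measured by single-cell RNA sequencing of splenocytes in 3 libraries, after depletion of T cells with CD3 microbeads. Each library combined 2 conditions, with 3 mice per condition, and cells were marked with 6 antibody hashtags per library. The C57BL/6 control library held male C57Bl/6 mice given a sham minipump and female C57Bl/6 mice. The Ang II library (C57BL/6 Ang II) was made from male C57Bl/6 mice given a minipump at 10 weeks of age that released angiotensin II for 2 weeks, at 490 ug/kg/min as the labels write it, together with 2HOBA (2-hydroxybenzylamine, a scavenger of reactive isolevuglandins) or placebo. The B6.SLE123 library held female mice of the lupus-prone strain B6.SLE123, which carries susceptibility loci on the C57BL/6 background, given 2HOBA or placebo from 7 weeks of age for 6 weeks. The mice were 12 to 14 weeks old when spleens were taken. No label ties a hashtag to a condition, so the hashtag populations were kept unassigned, and each library was 1 sample of its group. With 1 library a group there is no replicate check and no test. Intervals below are exact 95% intervals for counting error alone, and strain, treatment and library cannot be told apart. The control library holds both sexes, and ratios against its cells with an Xist or a Y-linked UMI are given for B cell-like and neutrophil-like cells.

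The libraries held 16062 to 20691 cell barcodes, of which 14017 to 16702 were kept, with median depths of 1759, 2724 and 1888 unique molecular identifiers (UMIs) per kept cell in control, Ang II and B6.SLE123. Pairs of libraries shared 304 to 349 barcodes. Cells were placed in a class by 6 marker genes per class, which placed 85.8% to 91.8% of kept cells. B cell-like cells were the bulk, with 12629, 11146 and 12042 cells. T cell-like cells numbered 7, 283 and 8, so the Ang II library alone kept T cells in number. Xist, the transcript of the inactive X chromosome, stood at 250 CPM (its UMIs scaled to a total of 1000000 UMIs) in control, 0 in Ang II and 410 in B6.SLE123 cells, as the sexes named in the study's design would give.

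In B cell-like cells Fos, Fosb and Jun were at least 2-fold higher in the B6.SLE123 library than in control, while Nr4a1 was lower. The 250 bases upstream of a RefSeq transcription start of these 4 genes are shown because they hold different matches to cAMP response element letters, the sequence through which CREB and ATF proteins act. Sequences are from RefSeq on GRCm38.p6, 5′ to 3′ on the strand of the gene. Capitals mark TGACG, the core of the cAMP response element, or its reverse complement CGTCA, and in Jun the variant TGACATCA. They lie at chr12:85473640-85473889 (plus strand, Fos), chr7:19310046-19310295 (minus strand, Fosb), chr4:95052223-95052472 (minus strand, Jun) and chr15:101266596-101266845 (plus strand, Nr4a1). The Nr4a1 window precedes an internal start and lies inside the gene body given below.
Fos: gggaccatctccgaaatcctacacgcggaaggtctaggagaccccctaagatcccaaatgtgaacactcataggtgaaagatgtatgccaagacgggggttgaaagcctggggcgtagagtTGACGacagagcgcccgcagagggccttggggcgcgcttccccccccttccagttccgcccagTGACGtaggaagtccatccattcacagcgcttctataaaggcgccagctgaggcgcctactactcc
Fosb: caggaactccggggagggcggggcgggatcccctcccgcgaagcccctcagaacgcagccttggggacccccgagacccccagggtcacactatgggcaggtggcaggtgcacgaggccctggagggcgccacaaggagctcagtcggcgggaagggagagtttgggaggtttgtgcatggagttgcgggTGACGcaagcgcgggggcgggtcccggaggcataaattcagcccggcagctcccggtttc
Jun: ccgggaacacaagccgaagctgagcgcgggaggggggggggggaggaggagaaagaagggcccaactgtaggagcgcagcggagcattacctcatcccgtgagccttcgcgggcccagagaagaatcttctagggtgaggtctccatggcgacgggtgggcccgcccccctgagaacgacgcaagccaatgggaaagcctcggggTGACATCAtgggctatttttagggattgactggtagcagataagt
Nr4a1: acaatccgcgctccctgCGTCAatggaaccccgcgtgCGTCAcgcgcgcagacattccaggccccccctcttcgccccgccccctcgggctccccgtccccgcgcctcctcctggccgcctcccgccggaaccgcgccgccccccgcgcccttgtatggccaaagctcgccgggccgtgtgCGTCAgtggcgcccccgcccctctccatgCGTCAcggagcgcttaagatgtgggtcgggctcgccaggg
Of the 10 genes, 8 matched an entry of the promoter table and Egr1 and Ier2 did not. Among the windows not printed, those of Dusp1 and Zfp36 also lie inside the gene body. That of Jund ends at chr8:70697738, upstream of a gene body that starts at 70698949. Searched on both strands, TGACG was in 5 of the 8 windows (Fos, Fosb, Junb, Nr4a1 and Dusp1) and in 17.8% of all 32851 windows of that length. Fos held it in 2 places and Fosb in 1 on their own strand, and Nr4a1 in 4 places on the other strand. TGACATCA was in Jun alone of the 8, and in 2.93% of all windows. The AP-1 site TGACTCA, whose reverse complement is TGAGTCA, was in none of the 8 and in 4.46% of all windows. The serum response element was in Zfp36 alone of the 8 windows and in 1.47% of all windows. Only 250 bases were searched, so an element further upstream, or one of Egr1 or Ier2, would not have been seen. Absence from a window is therefore not absence from the gene. No motif overlapped another in the 4 windows printed. A match is a string of letters and was not tested for function.

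The gene bodies, from the GENCODE annotation of GRCm38, are at chr12:85473890-85477273 for Fos (ENSMUSG00000021250), chr7:19302696-19310051 for Fosb (ENSMUSG00000003545), chr4:95049034-95052222 for Jun (ENSMUSG00000052684), chr8:84974484-84978718 for Junb (ENSMUSG00000052837) and chr8:70698949-70700616 for Jund (ENSMUSG00000071076). Nr4a1 (ENSMUSG00000023034) is at chr15:101254269-101274795, Ier2 (ENSMUSG00000053560) at chr8:84661331-84662852, Dusp1 (ENSMUSG00000024190) at chr17:26505590-26562128 and Zfp36 (ENSMUSG00000044786) at chr7:28376784-28380253. The identifier of Egr1 is ENSMUSG00000038418.

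Over all kept cells the summed level of the 10 genes was 1483 CPM in control, 1635 CPM in Ang II and 1641 CPM in B6.SLE123. These levels count UMIs, which are not divided by transcript length. At least 1 UMI of a member was found in 82.2%, 89.65% and 84.6% of cells. A gene was called when its level differed at least 2-fold (a log2 ratio of 1 or more in size) with at least 50 UMIs over the pair of libraries. None of the 10 was called in Ang II against control, where 3.1% of the 12495 genes tested were. In B6.SLE123 against control, 2 of 10 were called, Fosb at a log2 ratio of 1.02 (0.91 to 1.14) and Jun at 1.03 (0.98 to 1.09), where 8.67% of all genes were. Both are close to the limit. None was called without the B6.SLE123 population C0303, where they were at 0.84 and 0.88, without control C0304 or C0306, or with the study's limits on cells applied to UMIs, where they were at 0.78 and 0.83. Both contrasts use the same control library. A whole-library level mixes cell types, and in such a sum more cells of a type and more RNA per cell cannot be told apart, so levels were taken by class.

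The members differed far more between cell classes than between libraries. Of the classes plotted, neutrophil-like cells held the highest sum of the 10 genes, at 5940 CPM in control, 4573 CPM in Ang II and 3406 CPM in B6.SLE123. Monocyte-like cells followed at 2740, 3197 and 2679 CPM, then NK cell-like cells at 1669, 2295 and 1949 CPM and B cell-like cells at 1186, 1329 and 1349 CPM. The order of these 4 classes was the same in each library, with intervals that did not overlap between neighbours. Basophil-like cells stood at 4774, 7980 and 4187 CPM, above the neutrophil-like cells in Ang II and B6.SLE123, but rested on 32, 18 and 27 cells. Erythroid-like cells, in which most transcription has ceased, were at the bottom in Ang II and B6.SLE123, and 0 of 5, 0 of 20 and 1 of 31 of them had a Fos UMI.

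Single members had their own class pattern. Fos was 973 CPM in neutrophil-like, 356 in monocyte-like and 103 in NK cell-like cells of the control library, against 16.1 CPM in B cell-like cells. Dusp1, a phosphatase that switches off MAP kinases, was 860 CPM in control neutrophil-like cells and 6.99 CPM in B cell-like cells. Nr4a1, an orphan nuclear receptor used as a reporter of antigen receptor signalling, was highest in monocyte-like cells at 243, 229 and 235 CPM. It was near the floor in NK cell-like cells, with 6, 10 and 2 UMIs in 561, 388 and 615 cells. Jund, the AP-1 subunit that resting cells keep, was the most abundant member in B cell-like cells of every library.

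**Figure D1:**
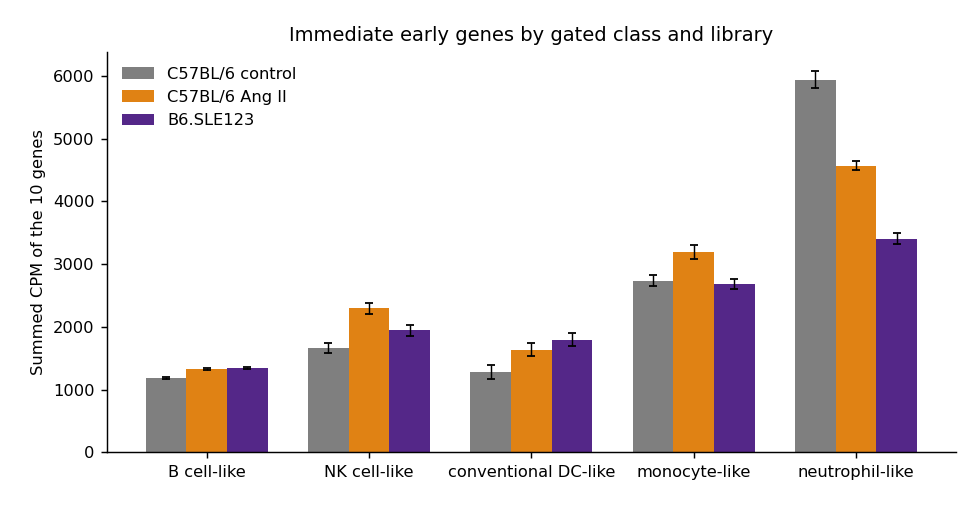
Summed level of the 10 genes, in CPM, in B cell-like, NK cell-like, conventional DC-like, monocyte-like and neutrophil-like cells of the 3 libraries (grey, control; orange, Ang II; purple, B6.SLE123), with exact Poisson 95% intervals as error bars. Neutrophil-like cells are the highest of these 5 classes in each library and fall from 5940 CPM in control to 3406 CPM in B6.SLE123, while B cell-like cells lie between 1186 and 1349 CPM.

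Plasma cell-like cells, the antibody-secreting descendants of B cells, were too few for a comparison in control (12 cells) and Ang II (15 cells) but numbered 161 in B6.SLE123. There Fos was 519 CPM (486 to 554) and Jun 781 CPM (740 to 824), against 51.9 and 188 CPM in B cell-like cells of the same library. Nr4a1 was detected by 4 UMIs, at 2.30 CPM (0.63 to 5.88), in these plasma cell-like cells.

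In B cell-like cells, the most numerous class, Fos, Fosb and Jun differed between B6.SLE123 and control. In that contrast, 3 of 10 members were called higher, where 5.18% of the 11325 genes tested were, and 0 of 10 were called lower, where 1.71% were. The median log2 ratio of the members was 0.51, beside -0.05 over all genes. In Ang II against control, 0 of 10 were called higher or lower, where 1.08% and 0.628% of the 11313 genes tested were, and the median was 0.42 beside 0.06 over all genes. The sum of the 10 moved little, by log2 ratios of 0.16 in Ang II and 0.19 in B6.SLE123, because Jund made up 668 of the 1186 CPM in control. Without Jund the sum was 518, 663 and 724 CPM, and its log2 ratios were 0.36 (0.33 to 0.39) and 0.48 (0.45 to 0.51).

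Fos, the inducible partner of Jun in AP-1, had the largest ratio of the members in B6.SLE123, while in Ang II that was Dusp1. It stood at 16.1 CPM (14.6 to 17.7) in control, 26.4 CPM (24.7 to 28.1) in Ang II and 51.9 CPM (49.4 to 54.6) in B6.SLE123 B cell-like cells. Over the 6 hashtag populations of each library, the lowest, median and highest levels were 6.96, 11.5 and 38.9 CPM in control, 17.0, 26.7 and 36.2 CPM in Ang II, and 41.5, 44.5 and 84.2 CPM in B6.SLE123. Every hashtag population of B6.SLE123 was above every one of control, the closest pair being 41.5 and 38.9 CPM. The Ang II populations lay inside the control range. The log2 ratio was 1.69 (1.53 to 1.85) in B6.SLE123, a 3.22-fold difference, and 0.71 (0.55 to 0.88) in Ang II. A Fos UMI was found in 2.68%, 5.44% and 8.33% of B cell-like cells, at median depths of 1796, 2778 and 1967 UMIs. With each cell thinned to 1000 UMIs the shares were 1.35% (1.15 to 1.58), 2.27% (2.00 to 2.57) and 3.67% (3.33 to 4.04), and kept their order.

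Fosb, which encodes a close relative of Fos, was 12.8 CPM in control and in Ang II and 33.95 CPM in B6.SLE123. Its hashtag populations ran from 6.23 over a median of 9.01 to 30.0 CPM in control, from 9.88 over 12.5 to 18.5 CPM in Ang II, and from 29.8 over 30.9 to 44.6 CPM in B6.SLE123. The B6.SLE123 and control ranges overlapped only through the highest control population. The log2 ratio was 1.40 (1.23 to 1.59) in B6.SLE123 and 0.00 (-0.20 to 0.21) in Ang II. The difference between the contrasts was not tested.

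Jun was 84.0 CPM (80.6 to 87.6) in control, 114 CPM (110.1 to 117) in Ang II and 188 CPM (183 to 193) in B6.SLE123. The lowest, median and highest hashtag populations were at 61.5, 71.4 and 147 CPM in control, 95.1, 116 and 138 CPM in Ang II, and 148, 173 and 268 CPM in B6.SLE123. All 6 B6.SLE123 populations were above all 6 control populations, although the lowest, 148.3 CPM, was just above the highest control, 147.0 CPM. The log2 ratio was 1.16 (1.09 to 1.23) in B6.SLE123 and 0.43 (0.36 to 0.51) in Ang II. Thinned shares of cells with a Jun UMI were 7.23%, 9.42% and 14.3%, from 13.1%, 21.8% and 26.8% before thinning.

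In B6.SLE123 the other AP-1 subunits had smaller ratios than Fos, Fosb and Jun. Junb, which can restrain Jun, was 100.5, 124.5 and 142.5 CPM. Its log2 ratios were 0.31 (0.24 to 0.38) in Ang II and 0.50 (0.43 to 0.57) in B6.SLE123. Its hashtag ranges were 79.6 to 134.5 CPM in control, 104 to 151.5 CPM in Ang II and 122 to 163 CPM in B6.SLE123, and overlapped. Jund stood at 668, 666 and 625 CPM, and its log2 ratios were 0.00 (-0.03 to 0.02) and -0.10 (-0.13 to -0.07). The Jund populations ran from 569 to 847 CPM in control, a span that held both other libraries' ranges.

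**Figure D2:**
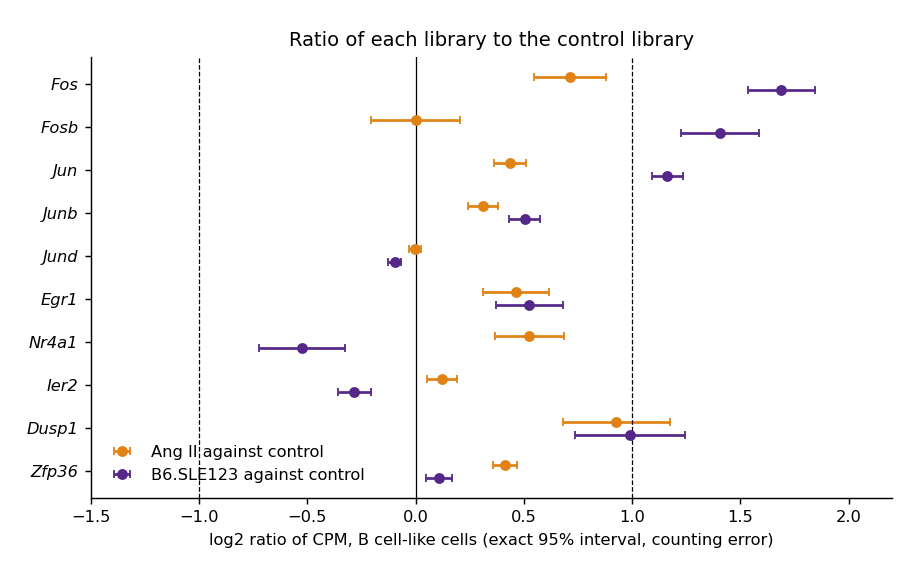
Log2 ratio of CPM (horizontal axis) of each member in B cell-like cells, Ang II against control in orange and B6.SLE123 against control in purple, with exact 95% intervals for counting error and dashed lines at the 2-fold limits. Fos, Fosb and Jun of B6.SLE123 lie beyond 2-fold, Dusp1 lies close to it in both contrasts, and Nr4a1 and Ier2 fall below 0 in B6.SLE123 but above 0 in Ang II.

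Egr1 and Nr4a1, which antigen receptor signalling induces together, were both higher in Ang II, but in B6.SLE123 Egr1 was higher and Nr4a1 lower. Levels of Egr1 were 20.8, 28.7 and 30.0 CPM, and its log2 ratios were 0.46 (0.31 to 0.61) in Ang II and 0.53 (0.37 to 0.68) in B6.SLE123. Its hashtag populations ran from 13.8 to 25.5 CPM in control, from 24.0 to 35.4 CPM in Ang II and from 23.1 to 38.5 CPM in B6.SLE123, with overlap in both contrasts. Nr4a1 was 18.1 CPM (16.5 to 19.8) in control, 26.0 CPM (24.4 to 27.7) in Ang II and 12.55 CPM (11.3 to 13.9) in B6.SLE123. The Nr4a1 populations ran from 10.4 over 18.8 to 22.0 CPM in control, from 16.4 over 25.3 to 40.2 CPM in Ang II and from 7.15 over 13.1 to 16.6 CPM in B6.SLE123. They overlapped in both contrasts, and the log2 ratios were 0.52 (0.36 to 0.69) and -0.53 (-0.73 to -0.33). Neither reached the 2-fold limit. Thinned shares of cells with an Nr4a1 UMI were 1.35%, 1.70% and 1.17%, and the intervals of control and B6.SLE123 overlapped, so the lower CPM was not matched by a share that could be told from control at this depth.

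Ier2, whose protein has no settled biochemical role, was 108, 117 and 88.5 CPM. Its hashtag populations ran from 90.7 to 118 CPM in control, 96.6 to 146 CPM in Ang II and 69.3 to 106 CPM in B6.SLE123, and overlapped throughout. The log2 ratio was 0.12 (0.05 to 0.19) in Ang II and -0.28 (-0.36 to -0.21) in B6.SLE123.

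The feedback genes split. Dusp1 was low in B cell-like cells, at 6.99 CPM (6.03 to 8.06) in control, 13.3 CPM (12.1 to 14.5) in Ang II and 13.9 CPM (12.6 to 15.3) in B6.SLE123. Hashtag populations ran from 3.81 over 6.47 to 9.09 CPM in control, from 6.12 over 14.5 to 20.6 CPM in Ang II, and from 10.2 over 12.6 to 19.7 CPM in B6.SLE123. The B6.SLE123 populations were all above control and the Ang II populations overlapped it. Its log2 ratios, 0.93 (0.68 to 1.18) and 0.99 (0.74 to 1.25), stood just inside the 2-fold limit. Fosb and Jun were the nearest members beyond that limit in the same class. Zfp36, which encodes tristetraprolin, a protein that speeds decay of cytokine and immediate early transcripts, was 151, 201 and 162.5 CPM. Its log2 ratios were 0.41 (0.36 to 0.47) in Ang II and 0.11 (0.05 to 0.17) in B6.SLE123, with control populations from 129 to 188 CPM, Ang II from 172 to 226 CPM and B6.SLE123 from 149.8 to 191 CPM.

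Counting members whose 6 hashtag populations did not overlap control, 3 of 10 were higher in B6.SLE123 (Fos, Jun and Dusp1), where 9.2% of genes were, and 0 of 10 lower, where 10.4% were. In Ang II 0 of 10 were higher and 0 of 10 lower, where 7.83% and 4.84% of genes were.

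**Figure D3:**
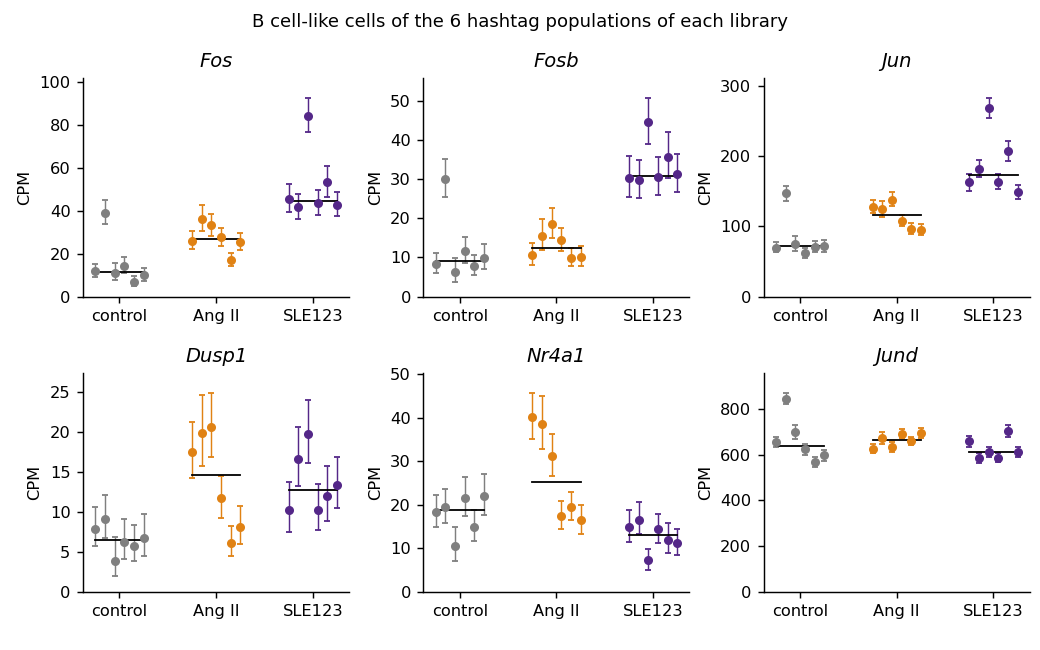
Levels of Fos, Fosb, Jun, Dusp1, Nr4a1 and Jund, in CPM, in B cell-like cells of the 6 hashtag populations of each library (C0301 to C0306 from left to right), with exact Poisson 95% intervals and a line at the median. In control the population C0302 stands apart for Fos (38.9 CPM), Fosb and Jun, and in B6.SLE123 the population C0303 is highest for the same genes (Fos 84.2 CPM).

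A single hashtag population set the upper end of the control range. B cell-like cells marked C0302 held Fos at 38.9 CPM, where the next control population was at 14.3 CPM, Fosb at 30.0 CPM against 11.6, and Jun at 147 CPM against 74.8. The same population had the highest Cd69, at 170 CPM against a control median of 81.5 CPM. Without it the Fos log2 ratio was 2.26 in B6.SLE123 and 1.29 in Ang II, and 2 members in place of 0 were then called in Ang II. Without Ang II C0305 or C0306, 1 was called. These counts stand without the share of all genes called in the same cells. Without C0303, the highest population of B6.SLE123 for Fos, the ratio in B6.SLE123 was 1.49. In each library the population with the highest Fos in B cell-like cells was also the one with the highest S100a8, a neutrophil alarmin, over all kept cells, at 9987, 30610 and 17137 CPM. Within the B cell-like cells of control C0302, S100a8 was 12.25 CPM, below the 31.3 CPM of all control B cell-like cells. In those of Ang II C0302 it was 89.6 CPM, also below the 146 CPM of that library. In those of B6.SLE123 C0303 it was 441 CPM, above the 192 CPM of that library. The part of neutrophil number in these levels was not tested.

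The ratios also moved with the control cells used. The control library held 3260 B cell-like cells with an Xist UMI and 1660 with a UMI of a Y-linked gene, and such cells are deeper than the rest. The B6.SLE123 mice were female and the Ang II mice male. In sex, the first set therefore matches B6.SLE123 and the second matches Ang II. Against the first, the B6.SLE123 log2 ratios were 2.31 for Fos, 1.56 for Fosb and 1.35 for Jun. Against the second they were 1.16, 1.14 and 0.79, so Jun was no longer past the 2-fold limit. For Ang II, Fos was at 1.34 against the first and 0.19 against the second. Fos and Fosb of B6.SLE123 stayed past 2-fold against both. The control population C0302, with Xist at 0.79 CPM in B cell-like cells, held Fos at 38.9 CPM. No other control population, with or without Xist, was above 14.3 CPM. The parts of sex, depth and this population in the shifts were not tested.

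RNA from other cells was present in the B cell-like profiles and was measured. S100a8 stood at 31.3, 146 and 192 CPM in B cell-like cells of the 3 libraries, and Jchain, which plasma cells express, at 17.3, 19.55 and 181 CPM. If all of that S100a8 came from neutrophil-like RNA with its own Fos content, it would bring 0.26, 0.72 and 0.82 CPM of Fos, and Jchain scaled to plasma cell-like cells would bring 0.15, 0.07 and 2.88 CPM. These are to be set against measured levels of 16.1, 26.4 and 51.9 CPM. They are averages over the class, and no monocyte-like source was included. B cell-like cells with a Fos UMI held more S100a8, at 108.5, 196 and 603 CPM against 28.6, 142 and 132 CPM in those without. Jchain was 48.8, 22.7 and 433 CPM against 16.2, 19.3 and 144.5 CPM, and Lyz2 141, 23.6 and 93.1 CPM against 21.7, 21.4 and 24.3 CPM. Nkg7 was lower with Fos in Ang II and B6.SLE123. Leaving out every B cell-like cell with a UMI of S100a8, S100a9, Lyz2, Csf1r, Nkg7 or Jchain gave B6.SLE123 log2 ratios of 1.57 for Fos, 1.47 for Fosb and 1.13 for Jun.

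B cell subsets were taken from cells with a UMI of named genes, sets chosen after the class values were seen, and a cell could be in several sets. Cells with Fcer2a (CD23, a follicular B cell marker) held Fos at 16.2, 24.8 and 39.8 CPM. Cells with Cr2, Cd1d1 or Dtx1, which marginal zone B cells express strongly, held it at 13.5, 23.7 and 45.0 CPM. That set held 51.0%, 62.5% and 44.5% of B cell-like cells, so it is broad and is not a gate for marginal zone B cells. Among cells with Zbtb32, Bhlhe41 or Cd9, genes of B1 and memory B cells, it was 16.7, 32.8 and 76.5 CPM. Cells with the cycling genes Mki67, Top2a or Birc5 had 19.4, 20.1 and 66.0 CPM. B6.SLE123 was highest in each of these sets, and its level in the last 2 was above that in Fcer2a cells, with intervals that did not overlap. In Ang II the level in cells with Zbtb32, Bhlhe41 or Cd9 was likewise above that in Fcer2a cells, at 27.6 to 38.7 against 22.7 to 27.0 CPM by their intervals, and that in cycling cells was not. In control the intervals of all 4 sets overlapped.

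The sizes of these sets also differed. Fcer2a was detected in 5162, 6493 and 2543 B cell-like cells and the cycling genes in 261, 278 and 927. These are detections without thinning, and the libraries differ in depth. Within Fcer2a cells the B6.SLE123 log2 ratio was 1.30 for Fos, 1.05 for Jun and 0.88 for Fosb, so Fosb was no longer past the 2-fold limit. Nr4a1 did not follow Fos across the B6.SLE123 sets. It was 16.6 CPM (13.5 to 20.3) in Fcer2a cells and 18.02 CPM (14.7 to 21.8) in cells with Zbtb32, Bhlhe41 or Cd9, with intervals that overlapped, and 6.42 CPM (4.33 to 9.17) in cells with cycling genes, on 30 UMIs. Egr1 was 20.2, 29.2 and 40.9 CPM in cells with cycling genes, against 28.8, 30.7 and 28.9 CPM in Fcer2a cells.

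**Figure D4:**
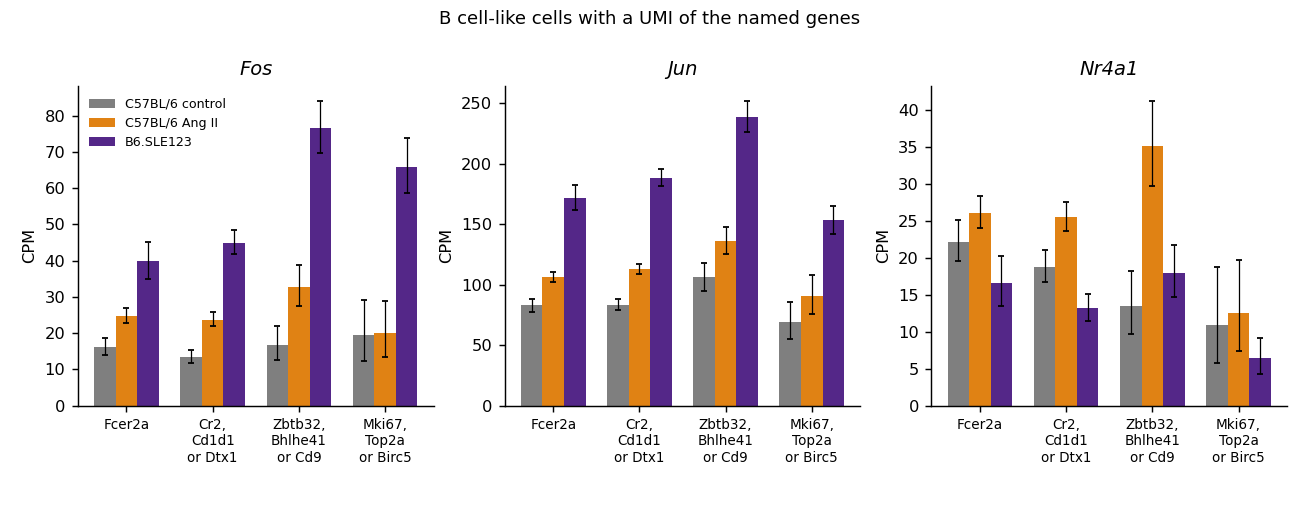
Levels of Fos, Jun and Nr4a1, in CPM, in B cell-like cells that hold a UMI of the genes named under each group of bars, for the 3 libraries, with exact Poisson 95% intervals as error bars. Fos of B6.SLE123 rises from 39.8 CPM in Fcer2a cells to 76.5 CPM in cells with Zbtb32, Bhlhe41 or Cd9, while Nr4a1 is 6.42 CPM in cells with Mki67, Top2a or Birc5.

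Members were found together in single B cell-like cells, thinned to 1000 UMIs. Jun was detected in 17.4% (11.9 to 24.1) of control cells with a Fos UMI and 7.09% (6.63 to 7.57) of those without, in 20.2% and 9.17% in Ang II, and in 28.5% (24.1 to 33.1) and 13.8% (13.1 to 14.5) in B6.SLE123. Egr1 was in 13.7%, 10.4% and 11.6% of cells with an Nr4a1 UMI and in 1.13%, 1.47% and 2.05% of cells without. It was also more frequent in cells with a Fos UMI, at 6.21%, 6.58% and 6.19% against 1.23%, 1.51% and 2.01% of cells without. Nr4a1 was in 3.11% (1.02 to 7.10) of control cells with Fos and 1.33% (1.13 to 1.55) of those without, with intervals that overlapped, and in 4.12% (1.99 to 7.44) and 1.64% (1.41 to 1.91) in Ang II, with intervals that did not. In B6.SLE123, it was in 1.24% (0.40 to 2.86) of the 404 cells with Fos and 1.17% (0.97 to 1.39) of those without, with intervals that overlapped. Cells of different hashtags and subsets are mixed in these shares.

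Across the 18 hashtag populations of B cell-like cells, with each value centred on the mean of its library, the genes whose level went most with the summed members were Cd69 (Pearson r of 0.86), Sh3bgrl3 (0.85), Gimap6 (0.84), Tmsb10 (0.82) and mt-Co1 (0.81), among 2791 genes ranked. Rhoh, Sin3b, Ssb, Gpr183 and Tle5 completed the first 10, at 0.78 to 0.74. The populations of a library share its preparation and depth, and the values are a description. Cd69, an activation antigen that holds lymphocytes in tissue, ran from 72.3 over 81.5 to 170 CPM in control, from 90.6 over 121 to 153 CPM in Ang II and from 127 over 136 to 251 CPM in B6.SLE123. The 8 genes of the lymphocyte activation list that were ranked, Cd69 among them, had a median r of -0.21, beside -0.02 over all genes ranked, 0.28 for 10 other early response genes and 0.06 for 9 heat shock genes. Each member is itself part of the sum, Jund the largest, so its r is partly built in. The values were 0.93 for Fos, 0.87 for Jun, 0.85 for Fosb, 0.83 for Jund, 0.78 for Junb and 0.71 for Zfp36. They were 0.45 for Dusp1, 0.18 for Ier2, 0.09 for Egr1 and 0.04 for Nr4a1. Control C0302 held a sum of 1550 CPM against a control median of 1125 CPM, and its weight in all these correlations was not tested.

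Other genes of the early response were taken from a fixed list of 29, of which 23 or 24 were tested in B cell-like cells. In B6.SLE123 against control, 2 of 24 were called higher and 0 lower, where 5.18% and 1.71% of all genes were, with a median log2 ratio of 0.11 beside -0.05. The share called higher is near that of all genes. These were Atf3, a stress-induced partner of AP-1 proteins, at 0.71 and 2.98 CPM (log2 ratio 2.08, 1.35 to 2.87), and Socs3, an inhibitor of cytokine signalling, at 4.57 and 18.1 CPM (1.98, 1.70 to 2.28). At the other end were Klf4 (-0.81, -1.27 to -0.35) and Egr3, induced by antigen receptor signalling as Egr1 is, at 25.3 and 17.1 CPM (-0.57, -0.74 to -0.40). In Ang II, 0 of 23 were called, and the median was 0.30 beside 0.06 over all genes. Egr2 (0.96, 0.51 to 1.43) and Zfp36l2, a relative of Zfp36, at 129 and 217 CPM (0.75, 0.69 to 0.81), were the highest, while Klf4 (-0.35, -0.75 to 0.05) and Egr3 (-0.32, -0.47 to -0.16) were the lowest.

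The heat shock list gave 2 of 14 called higher and 0 lower in each contrast. Its medians were 0.41 in Ang II and 0.61 in B6.SLE123, beside 0.06 and -0.05 over all genes. The interval lay above 0 for 12 of the 14 in Ang II and 13 in B6.SLE123, and below 0 for 1 and 0. Over all genes it lay above 0 for 3406 of 11313 and 3078 of 11325, and for the members 8 and 7 of 10. The heat shock genes called were not the same in the contrasts. Of all genes, 1.08% were called higher in Ang II and 5.18% in B6.SLE123. In Ang II they were the inducible chaperones Hspa1b, at 21.7 and 76.9 CPM (log2 ratio 1.82, 1.69 to 1.96), and Hspa1a, at 8.89 and 31.0 CPM (1.80, 1.60 to 2.01), with Bag3 (-0.26, -1.03 to 0.52) and Hspe1 (-0.08, -0.11 to -0.04) lowest. In B6.SLE123 they were Bag3 (1.65, 1.04 to 2.30) and the small heat shock protein gene Hspb1 (1.48, 0.98 to 2.00), both under 5 CPM, with Hsf1 (-0.06, -0.19 to 0.07) and Hspa5 (0.23, 0.19 to 0.27) lowest. Hspa1b ran from 5.09 over 16.5 to 54.7 CPM in control, with C0302 highest, from 18.8 over 56.97 to 188 CPM in Ang II, with C0303 highest, and from 12.2 over 28.8 to 51.9 CPM in B6.SLE123, where C0303, the population highest in Fos, was lowest. Median mitochondrial shares of B cell-like cells were 1.78%, 1.58% and 1.49%. The part of tissue handling in the levels of the members was not tested.

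On the lymphocyte activation list, 1 of 15 was called higher and 0 lower in B6.SLE123, with a median of -0.01, and 0 of 15 in Ang II, with a median of 0.11. The B6.SLE123 share is near the 5.18% of all genes called higher. Batf, an AP-1 family factor needed for class switching, was 15.95 CPM in control and 36.35 CPM in B6.SLE123 (log2 ratio 1.19, 1.03 to 1.35), with hashtag ranges of 12.0 to 20.1 and 24.1 to 52.5 CPM that did not overlap. Cd83, a surface activation marker, was 127.5, 196.5 and 228 CPM (0.62, 0.57 to 0.68, and 0.84, 0.78 to 0.90). Rel, an NF-kB subunit (-0.56, -0.62 to -0.51), and Irf4 (-0.34, -0.45 to -0.22) were lowest in B6.SLE123. In Ang II, Relb (0.31, 0.21 to 0.41) was next to Cd83 at the top, and Bcl2a1b (-0.08, -0.17 to 0.01) and Il2ra (-0.03, -0.62 to 0.57) were lowest.

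Outside the B cells, NK cell-like cells of the Ang II library had members called higher. Of the 8 tested, 2 were called, where 1.52% of genes were. Fos was 103 CPM in control, 225.5 CPM in Ang II and 171 CPM in B6.SLE123, with log2 ratios of 1.14 (0.81 to 1.48) and 0.73 (0.38 to 1.09). Dusp1 was 22.4, 44.9 and 31.1 CPM, on 24, 48 and 31 UMIs. Its log2 ratios were 1.01 (0.27 to 1.78) and 0.48 (-0.34 to 1.31). In B6.SLE123 0 of 8 were called, where 2.15% of genes were. The median over the 8 was 0.70 in Ang II and 0.40 in B6.SLE123, beside 0.07 and -0.02 over all genes.

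In monocyte-like cells none of the 10 was called in either contrast, where 1.41% of genes were in Ang II and 4.06% in B6.SLE123. In B6.SLE123 the interval of each of the 10 log2 ratios included 0, and the one furthest from 0 was Egr1 at -0.28 (-1.03 to 0.46), on 34 and 31 UMIs. In Ang II, 4 of 10 intervals lay above 0 and the sum had a log2 ratio of 0.22 (0.16 to 0.29). These 4 were Zfp36, at 254 and 382 CPM (0.59, 0.38 to 0.80), Dusp1 (0.49, 0.24 to 0.74), Junb (0.46, 0.28 to 0.64) and Jun (0.19, 0.01 to 0.36). Conventional DC-like cells had 8 members with enough UMIs, of which 0 were called in either contrast, where 3.42% and 2.83% of genes were. There Fos was 76.3, 85.2 and 151 CPM on 31, 48 and 98 UMIs, with a B6.SLE123 log2 ratio of 0.98 (0.39 to 1.61).

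In neutrophil-like cells taken as a single class most members were lower than in control. In B6.SLE123 3 of 10 members were called lower, where 6.47% of genes were, and in Ang II 0 of 10, where 2.52% were. Without the B6.SLE123 population C0303, which held 248 of the 643 cells, 0 were called, without control C0305 2 were, and without control C0302 6 were. In Ang II 2 were called without control C0302 and 1 without Ang II C0302. The share of all genes called with a population left out is not given, so these counts cannot be set against one. Junb was 1187, 823 and 489.6 CPM, Jund 1247, 748 and 529.8 CPM, and Nr4a1 49.6, 27.9 and 21.8 CPM, on 60, 79 and 39 UMIs. Their B6.SLE123 log2 ratios were -1.28 (-1.40 to -1.16), -1.24 (-1.35 to -1.12) and -1.19 (-1.81 to -0.58), and without C0303 -0.84, -0.80 and -0.97. Jund, Nr4a1 and Ier2 were also lower in B6.SLE123 B cell-like cells. For Fos the levels were 973, 695 and 526 CPM and the log2 ratios -0.49 (-0.59 to -0.38) and -0.89 (-1.01 to -0.76). In B6.SLE123 the interval lay below 0 for 9 of the 10 members. Jun was the exception, at 268, 349 and 333 CPM and log2 ratios of 0.38 (0.20 to 0.57) and 0.31 (0.12 to 0.51). The log2 ratio of the sum was -0.38 in Ang II and -0.80 in B6.SLE123. With the study's limits applied to UMIs instead of genes detected the Ang II value was 0.29. Against the control cells with an Xist UMI or a Y-linked UMI, 24 and 31 cells, the sum was higher in both libraries, at 0.92 and 1.18 in Ang II and 0.49 and 0.76 in B6.SLE123. Requiring such a UMI favours deeper cells. In control, the deeper neutrophil-like cells, those with granule genes as split below, had a sum of 1220 CPM against 11108 CPM in the others. The parts of sex, depth and maturation in this change of sign were not tested. Hashtag ranges of the summed members were 3562 to 9738 CPM in control, 3973 to 7531 CPM in Ang II and 2734 to 7687 CPM in B6.SLE123, and overlapped.

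**Figure D5:**
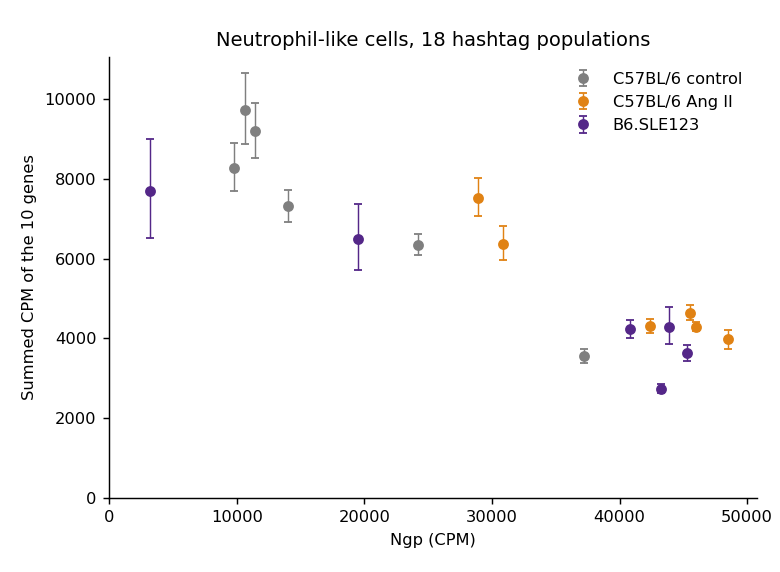
Summed level of the 10 genes (vertical axis) against the level of Ngp (horizontal axis), both in CPM, in neutrophil-like cells of the 18 hashtag populations, with exact Poisson 95% intervals of the sum. In control and Ang II the population with the most Ngp has the lowest sum, C0302 with 37184 CPM of Ngp and a sum of 3562 CPM and C0304 with 48475 and 3973 CPM. In B6.SLE123 the lowest sum, 2734 CPM in C0303, is not at the highest Ngp.

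The neutrophil-like cells held different shares of maturation stages. Ngp, Camp and Ltf are secondary granule genes that immature neutrophils transcribe and mature ones do not. Cells with no UMI of the 3 genes made up 81.4% of neutrophil-like cells in control, 48.3% in Ang II and 48.4% in B6.SLE123. In these cells the summed members were 11108, 13870 and 11148 CPM, and in cells with such a UMI 1220, 2389 and 1963 CPM. The split also divides by depth, with medians of 1062, 1648 and 786 UMIs without and 4764, 5921 and 3566 with. Within cells without granule genes the log2 ratio of the sum was 0.32 in Ang II and 0.01 in B6.SLE123, and 0 of 10 members were called in B6.SLE123. The share of all genes called there is not given. Among these cells Fos was 1849, 1951 and 1837 CPM and Junb 2358, 3128 and 2213 CPM. In cells with granule genes every member stood above control in both libraries, some with overlapping intervals. There Fos was 174, 399.5 and 282 CPM, Jun 109, 292 and 328 CPM, and Dusp1 64.8, 227 and 191 CPM. The lower levels of the whole class were thus not seen in cells with granule genes.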

How the data were processed

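The deposited files hold raw UMI counts per gene and cell barcode for 3 libraries of splenocytes (10x Genomics 5′ chemistry), made by the authors with Cell Ranger (version 6.0.0 in the file headers) and mm10 per the submitters' processing notes. Barcodes were kept with more than 200 and fewer than 3500 genes detected and a mitochondrial share of UMIs under 15%, which are the limits the study states, here applied to genes detected. Barcodes with several hashtags were left out as doublets (2446, 1809 and 3670 in control, Ang II and B6.SLE123). No other doublet caller was run. A cell joined a class when at least 3 of its 6 markers were detected and the next class had at least 2 fewer. UMIs were summed per library, class and hashtag and divided by the gene total (CPM). Exact Poisson, Clopper-Pearson and conditional intervals at 95% cover counting error only, and no group was tested because each has 1 library. For shares, cells were thinned to 1000 UMIs, which left out 1497, 1082 and 2224 kept cells. Beside the 10 members, the text names from each list the 2 highest and 2 lowest log2 ratios per contrast in B cell-like cells, and the 10 genes most correlated with the summed members over hashtag populations among those with a mean of at least 50 CPM. The members and lists were chosen with earlier results of these data known. Python 3.11.15, numpy 2.4.6, scipy 1.17.1 and pandas 2.3.3 were used, and the ratio code was tested on simulated data. Alternatives were other limits, gates, scalings, filters on low counts, control cells and hashtags left out. The following were chosen after seeing the data: cells without other cells' transcripts, Fcer2a cells, neutrophils without granule genes, and the sum without Jund.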

Additional observations from a re-analysis of the deposited data

Results flagged for a closer look

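Of 66 sets of 6 hashtag populations of B cell-like and neutrophil-like cells checked for a population far from the others, 10 stood out. Sets of other classes and of all kept cells were left out of this count, and some of them passed the same limit. Among these, C0301 of B6.SLE123 monocyte-like cells was high for Fos (663 CPM), Jun (602 CPM) and Egr1 (67.7 CPM). The limit used would flag about 1 in 20 sets of independent values from like populations. Here the sets share populations and each library combines 2 conditions, so the count cannot be set against that rate. In control B cell-like cells hashtag C0302 was high for Fos (38.92 CPM), Fosb (30.03 CPM), Jun (147 CPM), Zfp36 (188.3 CPM) and the sum of the 10 genes (1550 CPM). In B6.SLE123 B cell-like cells C0303 was high for Fos (84.2 CPM) and C0305 for Zfp36 (191 CPM). In neutrophil-like cells Jun was high in control C0303 (550.1 CPM, 58 cells), Egr1 in B6.SLE123 C0304 (100.5 CPM, 21 cells) and Ier2 in B6.SLE123 C0306 (705.2 CPM, 27 cells).

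Some members moved up in B cell-like cells and down in neutrophil-like cells of the same contrast, with intervals of the single ratios that did not reach 0. As log2 ratio in B cell-like cells minus that in neutrophil-like cells, the gaps for Ang II against control were 1.2 for Fos, 0.8373 for Junb, 1.354 for Nr4a1, 1.326 for Dusp1 and 0.5369 for Zfp36. For B6.SLE123 against control they were 2.576 for Fos, 2.094 for Fosb, 1.781 for Junb, 1.306 for Egr1, 1.761 for Dusp1 and 0.6696 for Zfp36. These gaps were not tested, since each group has 1 library, and they stand beside the different shares of neutrophil-like cells with granule genes.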

How the results depend on the processing

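Over 10 alternatives, the B6.SLE123 log2 ratio in B cell-like cells ran from 1.16 to 2.31 for Fos, 0.88 to 1.56 for Fosb and 0.79 to 1.35 for Jun. That of Nr4a1 stayed below 0, from -0.70 to -0.42. The log2 ratio of the summed members (written S) and the number of members called (N) moved as follows, by more than the counting interval or 1.5 times. The cause was not tested. N is given here without the share of all genes called under the same setting, and cannot be set against one. With the limits read as UMIs, S for Ang II was 0.2673 in all kept, 0.2331 in B cell-like and 0.2851 in neutrophil-like cells, and for B6.SLE123 0.06839 (N 0), 0.162 and -0.5606. Against control cells with Xist, S for Ang II was 0.51 (N 2), 0.4115 (N 2) and 0.9173 (N 6), and for B6.SLE123 0.515 (N 4), 0.4327 and 0.4924. Against control cells with a Y-linked UMI, S for Ang II was 0.2162 (N 1), 0.1052 and 1.183 (N 6), and for B6.SLE123 0.2212 (N 1), 0.1263 and 0.7579. The sign of S in neutrophil-like cells changed under these settings in both contrasts, except with the limits read as UMIs in B6.SLE123. Those control sets held 24 and 31 neutrophil-like cells, and with them B6.SLE123 ratios turned from negative to positive for Junb (0.8764 and 0.9371), Jund (0.04914 and 0.4085) and, with the second, Nr4a1 (0.2186). Requiring a UMI of Xist or of a Y-linked gene favours deeper cells, so such control sets differ from the rest in more than sex. Totals without mitochondrial, ribosomal protein and immunoglobulin genes gave S of 0.1025 and 0.1191 for Ang II in all kept and B cell-like cells, and 0.1726 for B6.SLE123 in all kept cells. Scaling by the median of ratios gave 0.1101, 0.1015 and -0.3051 for Ang II and 0.2313, 0.2356 and -0.7186 for B6.SLE123. The stricter gate gave -0.2787 in Ang II neutrophil-like cells, 0.2118 in B6.SLE123 B cell-like cells and -0.7024 in B6.SLE123 neutrophil-like cells. Without cells holding other cells' transcripts N for Ang II in B cell-like cells was 1. Within Fcer2a cells S was 0.09757 for Ang II and 0.114 for B6.SLE123. Without granule gene cells S was 0.3203 for Ang II and 0.00514 (N 0) for B6.SLE123 neutrophil-like cells.

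With each hashtag population left out in turn, S for Ang II ran from 0.08699 to 0.2174 in all kept, 0.1203 to 0.2709 in B cell-like and -0.6791 to -0.3185 in neutrophil-like cells. For B6.SLE123 it ran from 0.0786 to 0.2224, 0.1415 to 0.2921 and -1.104 to -0.5277. N ran from 0 to 0, 0 to 2 and 0 to 2 for Ang II, and from 0 to 2, 3 to 4 and 0 to 6 for B6.SLE123. Of the other values, 290 moved by more than their interval and 931 did not. Over the scalings used, the median log2 ratio of all genes lay between -0.11 and 0.06. In B6.SLE123 all kept cells it was -0.079 by CPM and 0.007 by the median of ratios. The libraries differ in depth, so shares of cells with a UMI were read after thinning.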

Other observations

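The control library fell into separate sets by Xist, at 1.70, 0.882 and 2.38 CPM in C0301 to C0303 and 513, 487 and 500 CPM in C0304 to C0306 over all kept cells. The population C0302, which stood apart for Fos, was in the first set. Its neighbours C0301 and C0303 held Fos at 12.0 and 11.1 CPM in B cell-like cells, and C0304 to C0306 at 14.3, 6.96 and 10.2 CPM. The B6.SLE123 populations, all from female mice, ran from 41.5 to 84.2 CPM.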
